A study of Mus musculus with 8 samples.

Results

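Most of the genes described here make retinoic acid from retinal or receive it in the nucleus. These are the retinaldehyde dehydrogenase genes Aldh1a1, Aldh1a2 and Aldh1a3, the retinoic acid receptor genes Rara, Rarb and Rarg, and the retinoid X receptor genes Rxra, Rxrb and Rxrg. Aldh1a7 is included as a paralogue of Aldh1a1, and no part in making retinoic acid is assumed for it. Members were taken by gene symbol, and all 10 are among the 24155 genes in the count table. Of these, 9 passed the filter on low counts and Aldh1a2 did not. They were chosen with their differences between the 2 groups already known, so those differences are given as a description. No p-value is given for a member, and where it is said which members were past the threshold used for all genes, this describes them and supports nothing.

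Polyadenylated RNA was sequenced from 8 cultures of oligodendrocyte progenitors, the glial precursors that give rise to myelinating cells. Progenitors were immunopanned from male and female mouse pups at postnatal day 7 whose Ehmt1 and Ehmt2 alleles are both floxed (Ehmt1fl/fl;Ehmt2fl/fl), and this genotype is shared by both groups. The 4 cKO cultures received Ad-RFP-iCre, an adenoviral vector for Cre recombinase with a red fluorescent reporter, and the 4 control cultures received Ad-RFP, with the reporter alone. All were infected at a multiplicity of 10 for 6 hours and collected 72 hours after infection, and the medium held 10 ng/mL PDGF-AA plus 20 ng/mL bFGF. Each of the batches 1, 3, 4 and 6 gave 1 control and 1 cKO library. The labels do not say whether batches came from separate animals, so the spread between them may be partly technical. No agent in the labels adds retinoids to the medium.

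Retinoic acid signalling starts with retinol, which dehydrogenases oxidise to retinal. Retinaldehyde dehydrogenases then oxidise retinal irreversibly to retinoic acid, and CYP26 enzymes break it down. Retinoic acid binds RAR proteins, which sit with an RXR partner on paired hexamer sites in DNA and recruit corepressors without ligand and coactivators with it. Rarb, Cyp26 genes and Dhrs3 are themselves induced by retinoic acid in many cells, and RXRγ is known for its part in oligodendrocyte differentiation and remyelination.

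2 sequences bear on how the values are read. The first set shows how alike Aldh1a1 and Aldh1a7 are, since some reads can match both. In the GENCODE M21 transcripts (GRCm38), their coding sequences of 1503 bases each aligned without a gap and were 91.6% identical, against 68.2% to 69.6% for the other 5 pairs among the 4 Aldh1a genes. Of all 50-base words in the Aldh1a7 coding sequence, 10.4% occur unchanged in Aldh1a1. The longest stretch they share is 100 bases, coding bases 757 to 856 in both, and is printed below in capitals with 15 lower-case coding bases on either side. In Aldh1a1 94 of the 100 bases lie at chr19:20629063-20629156 on the plus strand (exon 11 of 16), and in Aldh1a7 at chr19:20709398-20709491 on the minus strand (exon 8 of 13), with the last 6 in the next exon of each gene.
Aldh1a1: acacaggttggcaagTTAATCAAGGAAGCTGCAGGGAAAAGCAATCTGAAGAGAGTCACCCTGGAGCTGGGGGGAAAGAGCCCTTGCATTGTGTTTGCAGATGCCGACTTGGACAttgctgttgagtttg
Aldh1a7: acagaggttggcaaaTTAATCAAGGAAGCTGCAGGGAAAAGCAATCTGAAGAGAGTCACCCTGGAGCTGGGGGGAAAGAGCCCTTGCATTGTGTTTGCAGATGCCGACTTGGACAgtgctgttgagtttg

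The second is the RefSeq start of Rarb, shown because it holds the paired site through which retinoic acid is known to act on this gene. This start lies inside the gene span used for counts (chr14:16430839-16819156, minus strand), whose 5′ end is further upstream. The stretch is the 120 bases before the RefSeq start (GRCm38.p6, chr14:16575477-16575596, minus strand), with the site in capitals, from 53 to 37 bases before the start.
Rarb: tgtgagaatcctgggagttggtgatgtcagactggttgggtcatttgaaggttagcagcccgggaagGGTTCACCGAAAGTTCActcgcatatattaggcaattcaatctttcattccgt
The capitals match the motif named DR5, a pair of direct hexamer repeats 5 bases apart. RefSeq start windows of 300 bases (250 before and 50 after the start) were searched on both strands. It was in 32 of 32851 windows, or 0.0974%. Among the members, 9 of 10 had windows, and Rarb was the member with a match. Cyp26a1, which is not among the genes of the table used here, had one, and Cyp26b1 and Dhrs3 did not. A match is a description of the letters in these windows, not a bound site.

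The 8 libraries held 43542742 to 65374488 estimated counts. The targeted genes followed the labels: in cKO Ehmt1 was at 43.4% and Ehmt2 at 32.9% of control in the fit, lower in all 4 batches. Levels are in CPM, the depth-scaled count with TMM library factors. Each log2 fold change compares cKO with control in an edgeR quasi-likelihood model that has batch as a block, is followed by its SE, and is positive where cKO was higher, and the threshold is a Benjamini-Hochberg adjusted p of 0.05 over the 18102 genes tested. Progenitor markers were abundant, at a summed 8400 to 12800 CPM over 7 genes in control libraries. The 7 were Pdgfra, Cspg4, Olig1, Olig2, Sox10, Ptprz1 and Gpr17. Ptprz1 was at 3295 to 4671 CPM in these libraries, and Gpr17 ran from 102 CPM in batch 1 to 5377 CPM in batch 4. Batches differed in cycling: the proliferation gene Mki67 was at 1767 and 1860 CPM in the control libraries of batches 1 and 3 and at 634 and 369 CPM in those of batches 4 and 6. In bulk RNA, fewer cells that express a gene and less RNA per cell cannot be told apart.

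In control progenitors 5 of the 6 receptors were expressed well above the enzymes. To compare genes, levels were divided by the length of each gene's merged exons (CPM per kb, mean ± SD, n = 4 control libraries). Rxra was highest at 8.28 ± 1.69 CPM per kb, and Rxrb followed at 7.88 ± 1.15. Their ranges over libraries overlapped, and both lay clear of the rest. Rarg (2.25 ± 0.746), Rarb (2.13 ± 0.808) and Rara (1.30 ± 0.424) came next, each overlapping its neighbour in the order. Rxrg averaged 0.757 ± 1.06 CPM per kb, an SD above its mean. Of the enzymes, Aldh1a3 was at 0.385 ± 0.256, Aldh1a1 at 0.255 ± 0.255 and Aldh1a7 at 0.0996 ± 0.0996 CPM per kb, with overlapping ranges. Aldh1a2, the main embryonic retinaldehyde dehydrogenase, was at 0.0180 ± 0.0122. Its highest control library (0.0260) was just below the lowest of Aldh1a7 (0.0263). Each of these 2 values comes from 3 counts, so the ranges do not tell the genes apart. Among tested genes with an exon length, Rxra stood at percentile 67.6 of this level and Aldh1a1 at percentile 14.1.

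**Figure D1:**
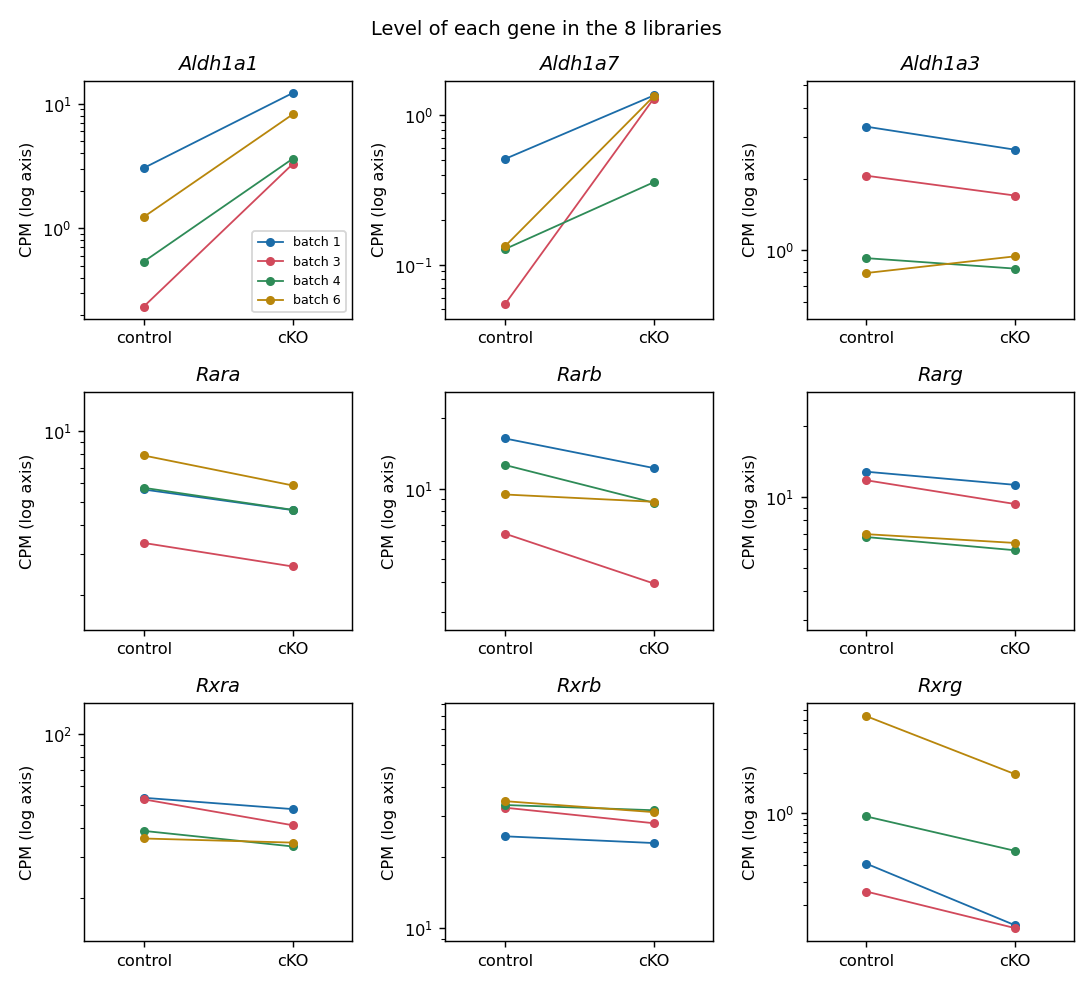
Level of 9 genes in CPM (log axis) in the control and cKO library of each batch, joined by a line per batch; Aldh1a2, with at most 4 counts per library, is left out. Aldh1a1 and Aldh1a7 slope upward in all 4 batches and the 6 receptor genes downward, and for several genes batches differ more than groups do.

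Aldh1a1 was several times higher in cKO, and Aldh1a7 moved with it, while the other enzyme genes did not follow. Aldh1a1 (ENSMUSG00000053279.8, chr19:20492715-20643465, plus strand, mm10) encodes a cytosolic retinaldehyde dehydrogenase that also marks dopamine neurons and stem-like cells. Its level was 3.04, 0.235, 0.539 and 1.23 CPM in the control libraries of batches 1, 3, 4 and 6, and 12.1, 3.26, 3.60 and 8.17 CPM in the matching cKO libraries. The groups did not overlap, though the lowest cKO library and the highest control library were close. Such separation was seen for 3.68% of tested genes. The log2 fold change was 2.58 ± 0.22, or 5.99-fold, and within batches the log2 difference ran from 1.98 in batch 1 to 3.60 in batch 3. Batch 1 had the highest control level and batch 3 the lowest, so the difference was smaller where the starting level was higher in these 2 batches. Batches 4 and 6 did not show this, at 2.658 and 2.695 from control levels of 0.539 and 1.23 CPM. The control level is also a term of the difference.

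Aldh1a7 (chr19:20692953-20727562, minus strand) is the next member along the chromosome, on the opposite strand. Its level was 0.510, 0.0543, 0.127 and 0.132 CPM in control and 1.36, 1.30, 0.356 and 1.34 CPM in cKO cultures of batches 1, 3, 4 and 6. The cKO library of batch 4 stood below the other cKO libraries and below the control library of batch 1, so the groups overlapped. Its log2 fold change was 2.44 ± 0.46, and it was 3.10 without batch 1 and 2.01 without batch 3. Counts of this gene were low, from 3 to 26 in control libraries and from 18.2 to 83.1 in cKO libraries.

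The deposited counts show that reads were divided between this pair. In the 4 control libraries both values were whole. In all 4 cKO libraries neither was, yet the sum of Aldh1a1 and Aldh1a7 lay within 0.002 of a whole number in each. The sums were 181, 16, 42 and 72 counts in control and 765, 204, 200 and 589 counts in cKO libraries of batches 1, 3, 4 and 6. Aldh1a7 took 9.72% to 19.05% of the sum in control and 9.11% to 28.25% in cKO libraries. The sum does not depend on the division, and its log2 fold change was 2.59 ± 0.26, from 1.47 ± 1.46 to 7.87 ± 4.49 CPM (SD, n = 4). How much of the Aldh1a7 difference comes from reads of Aldh1a1 was not tested.

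Aldh1a3 (chr7:66390890-66427517, minus strand), the third retinaldehyde dehydrogenase gene, was at 3.33, 2.06, 0.920 and 0.795 CPM in control and 2.66, 1.70, 0.830 and 0.936 CPM in cKO cultures of batches 1, 3, 4 and 6. It differed far more between batches than between groups, and its log2 fold change was -0.16 ± 0.16. Aldh1a2 (chr9:71215789-71296243, plus strand) had 3, 0, 3 and 3 counts in control and 0, 0, 3 and 4 counts in cKO libraries, too few to be tested. These 2 genes share no 50-base word with Aldh1a1 in their coding sequences.

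**Figure D2:**
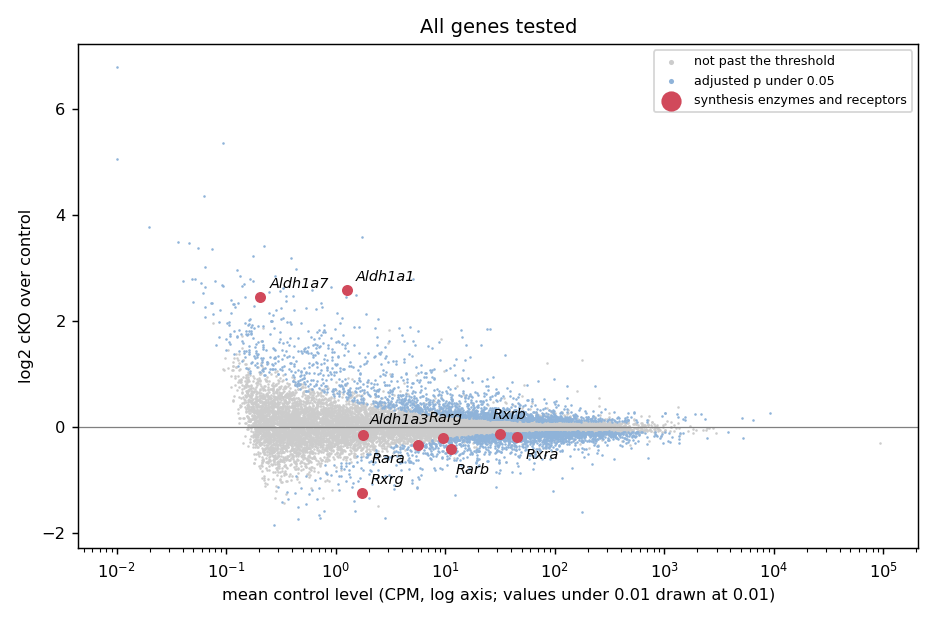
Log2 fold change of cKO over control against mean control level in CPM (log axis) for the 18102 genes tested, with the 9 tested members as large points. Aldh1a1 and Aldh1a7 lie high at a low control level, Rxrg lies low, and the other 6 members lie between -0.42 and -0.14.

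All 6 receptor genes were lower in cKO, 5 of them by small amounts. Each was lower in all 4 batches, a pattern seen for 21.3% of tested genes, while 51.7% had a fitted value below 0. Aldh1a1 and Aldh1a7 were higher in all 4, as were 19.5% of tested genes. The choice of members was not independent of these values. The sum of the 7 progenitor markers was lower in cKO over the same batches. It was 8400, 9950, 12300 and 12800 CPM in control and 7690, 8780, 10800 and 11400 CPM in cKO cultures of batches 1, 3, 4 and 6. Of the 7, Pdgfra, the PDGF receptor of progenitors, fell to 80.4% of control and Ptprz1 to 92.9%. The other 5 did neither: Cspg4 (-0.03), Olig1 (-0.12), Olig2 (-0.06), Sox10 (0.02) and Gpr17 (-0.02). Gpr17 weighs heavily on the sum in batches 4 and 6. It was at 102, 488, 5377 and 3905 CPM in control and 160, 524, 4286 and 2879 CPM in cKO cultures. Library makeup differed by group in each batch as well. The share of mitochondrial genes was 3.24%, 2.42%, 2.57% and 2.95% in control and 3.63%, 2.999%, 3.17% and 3.46% in cKO libraries. The ribosomal RNA gene CT010467.1 took 9.04%, 7.91%, 10.1% and 9.67% in control and 6.61%, 7.53%, 7.41% and 9.13% in cKO libraries. The part of these differences in the receptor values was not tested. In a fit without CT010467.1 all 6 receptors kept their sign. Rxrb (-0.13) was no longer past the threshold there, and 6 members were. That fit takes out 1 gene and cannot show the part of the other differences. Of the 9 members tested, 2 passed the threshold upward (Aldh1a1 and Aldh1a7) and 5 downward (Rara, Rarb, Rxra, Rxrb and Rxrg), where 20.5% of all genes tested passed, 10.0% upward and 10.4% downward. These counts describe the chosen genes and are not evidence about them. With group alone in the model, 0 of the 9 passed in edgeR and 2 had an unadjusted p under 0.05, while 3 of 18102 genes (0.0166%) passed and 893 (4.93%) had such a p. Without batch 1, 3, 4 or 6, the members past the threshold numbered 4, 4, 3 and 4.

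Rxrg (chr1:167598384-167639623, plus strand), the receptor gene with the lowest mean level per kb in control, differed most. It was at 0.412, 0.253, 0.936 and 5.36 CPM in control and 0.141, 0.134, 0.514 and 1.95 CPM in cKO cultures of batches 1, 3, 4 and 6. Batch 6 was far above the other batches in both groups, so the groups overlapped although each batch showed the same direction. The log2 fold change was -1.25 ± 0.21, or 42.1% of control. It was -1.06 without batch 6, where the call was lost. The counts behind it were 8 and 6 in the cKO libraries of batches 1 and 3. Markers of mature oligodendrocytes were higher in cKO over the same libraries: 5 of 6 tested rose, and their summed level over 7 genes was 20.6 to 624 CPM in control and 72.0 to 1300 CPM in cKO cultures, higher in all 4 batches. The part of such cells in the Rxrg difference was not tested.

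Among the RAR genes, Rarb (chr14:16430839-16819156, minus strand) differed most. Rarb was at 16.4, 6.44, 12.6 and 9.45 CPM in control and 12.2, 3.95, 8.72 and 8.80 CPM in cKO cultures of batches 1, 3, 4 and 6. The difference was large in batch 3 (-0.70 on the log2 scale) and small in batch 6 (-0.10), with a fitted log2 fold change of -0.42 ± 0.09. The gene carries the retinoic acid site printed above, which is a feature of the sequence and not a measurement in these cultures. Its 3′ end overlaps Top2b on the opposite strand, with 1793 of its 5265 exonic bases shared, and Top2b is abundant (361 CPM in control). The labels do not say if counting was strand-aware, so reads of these 2 genes could have been exchanged. Top2b itself did not pass (log2 fold change 0.05 ± 0.04). Without batch 4 Rarb was no longer past the threshold (-0.37).

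Rara (chr11:98927818-98974942, plus strand), the broadly expressed RAR gene, was at 5.65, 3.35, 5.74 and 7.88 CPM in control and 4.62, 2.66, 4.63 and 5.88 CPM in cKO cultures of batches 1, 3, 4 and 6. Its differences within batches were the most even of the RAR genes, with a fitted value of -0.34 ± 0.09, yet it did not pass with any 1 batch left out. Rarg (chr15:102234938-102257517, minus strand), at the highest mean level per kb of the RAR genes, was at 12.8, 11.8, 6.77 and 6.97 CPM in control and 11.3, 9.36, 5.95 and 6.39 CPM in cKO cultures. Its log2 fold change of -0.21 ± 0.07 was not past the threshold, and batches 1 and 3 were higher than batches 4 and 6 in both groups. Because the 3 genes moved by similar amounts, the makeup of RAR transcripts shifted little: Rarg made up 40.0% ± 13.0 of their summed CPM per kb in control and 43.2% ± 13.3 in cKO libraries (SD, n = 4).

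Rxra (chr2:27676440-27762957, plus strand) and Rxrb (chr17:34031812-34038399, plus strand), the common heterodimer partners, were at high levels in every library. Rxra was at 53.6, 52.7, 38.7 and 36.0 CPM in control and 47.9, 40.9, 33.3 and 34.5 CPM in cKO cultures of batches 1, 3, 4 and 6, a log2 fold change of -0.20 ± 0.05. Rxrb was at 24.6, 32.6, 33.4 and 34.7 CPM in control and 23.0, 28.0, 31.8 and 31.2 CPM in cKO cultures, a log2 fold change of -0.14 ± 0.04. The fitted cKO levels were 87.0% and 91.0% of control, differences smaller than the spread between batches. Without batch 1, 3 or 4 Rxra did not pass, and Rxrb did not pass without any 1 batch. Rxra took 49.1% ± 10.2 of RXR transcripts per kb in control and 49.0% ± 8.47 in cKO libraries, while Rxrg took 4.37% ± 5.95 and 2.01% ± 2.49 (SD, n = 4). In batch 6 the share of Rxrg was 13.2% in control and 5.66% in cKO.

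**Figure D3:**
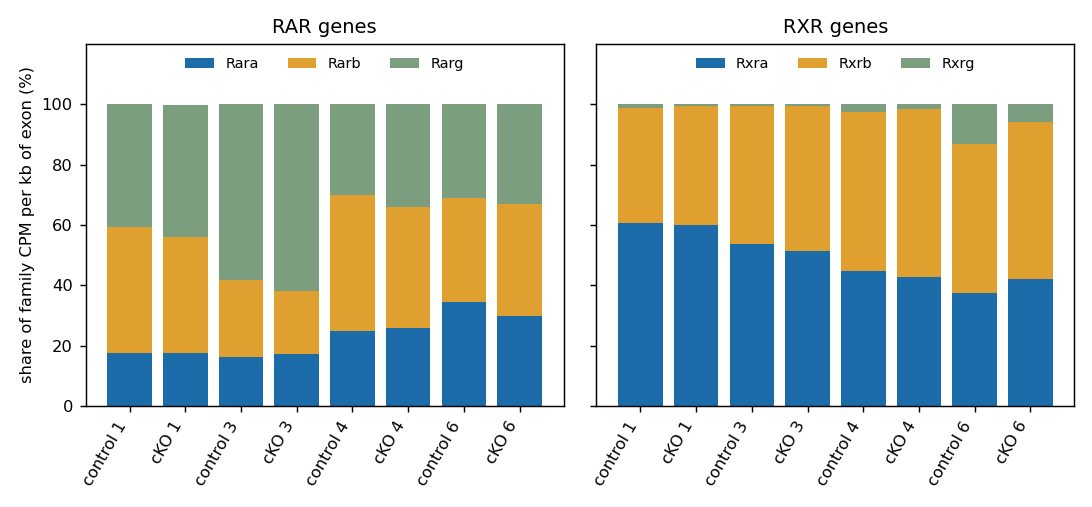
Share of each RAR gene (left) and RXR gene (right) in the summed CPM per kb of exon of its family, in percent, for each of the 8 libraries, ordered by batch. The makeup differs between batches, with Rarg at 58.2% in the control library of batch 3 and 31.2% in that of batch 6, more than between control and cKO of a batch.

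The other genes of the pathway were taken from 7 lists chosen by function and not by how these genes moved. Earlier results of these data were known when the lists were made, so their choice was not independent of the values. The shares and medians that follow are therefore a description. Of 124 genes, 97 were in the table and 82 were tested. Of the 82, 5 rose, 15 fell and 62 did neither, so 24.4% passed against 20.5% of all genes. The median log2 fold change was -0.05, against -0.01 over all genes tested. DESeq2 with the batch block called 13 of them, and leaving out batch 1, 3 or 4 left 13, 10 and 9. With group alone edgeR passed 0 of the 82, with 3 at an unadjusted p under 0.05.

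Retinoid binding proteins were represented mainly by Fabp5 and Rlbp1. Fabp5, which can carry retinoic acid to other nuclear receptors, was at 0.06 ± 0.05 and Rlbp1, which binds retinal, at -0.01 ± 0.04, neither past the threshold. Rbp4, the serum retinol carrier, was at 0.258 CPM in control and did not pass (-0.49 ± 0.33). Crabp2, the protein that delivers retinoic acid to RARs, was at 6 to 15 counts per library.

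Of 18 genes that interconvert or store retinol and retinal, 2 rose, 2 fell and 14 did neither. Rdh10 and Rdh11, dehydrogenases that act between retinol and retinal, did not pass (0.00 ± 0.07 and -0.05 ± 0.03). Dhrs3, which reduces retinal back to retinol and is induced by retinoic acid, fell by 1.14 on the log2 scale (SE 0.34, edgeR adjusted p = 0.0404). It was at 0.451, 0, 0.539 and 4.68 CPM in control and 0.441, 0.0223, 0.218 and 1.45 CPM in cKO cultures of batches 1, 3, 4 and 6. The fall was thus in batches 4 and 6, and without batch 3, 4 or 6 the call was lost. Without batch 6 the value was -0.53, and DESeq2 with the batch block did not call it (-0.94, adjusted p = 0.199). Lrat, which esterifies retinol for storage, rose (1.29 ± 0.36, edgeR adjusted p = 0.0294) at 7 to 13 counts in control and 16 to 34 in cKO libraries. Akr1b8, an aldo-keto reductase gene, rose from a similar low level (1.46 ± 0.40), and Rdh13, a mitochondrial family member, fell (-0.24 ± 0.05). Lrat was lost without batch 1, 3 or 4, Akr1b8 without batch 1, 4 or 6, and Rdh13 without batch 3. DESeq2 called neither Lrat (adjusted p = 0.0943) nor Akr1b8 (adjusted p = 0.0583).

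Breakdown of retinoic acid was represented by Cyp26b1, the CYP26 gene in the table. It fell by 0.83 on the log2 scale (SE 0.20, edgeR adjusted p = 0.0146), lower in 4 of 4 batches. Levels were 0.961, 0.235, 2.63 and 4.56 CPM in control and 0.793, 0.201, 1.11 and 2.34 CPM in cKO cultures of batches 1, 3, 4 and 6. Batches 4 and 6 had the higher levels in both groups and the larger differences. The call was lost without batch 4 or 6 (-0.63 at the smallest of the 4 fits).

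Genes listed as responding to retinoic acid went both ways. Of 20 tested, 2 rose, 6 fell and 12 did neither, with a median of -0.13. That is 40.0% past the threshold, against 20.5% of all genes, with 6 of 20 downward against 10.4%. The list was chosen with earlier results known, so nothing particular to it is read from this share. Cyp26b1 and Dhrs3 are among those that fell. Ntrk2, the receptor gene for the neurotrophin BDNF and the most abundant that fell, went from 587, 399, 434 and 744 CPM in control to 466, 331, 356 and 577 CPM in cKO cultures of batches 1, 3, 4 and 6. Its log2 fold change was -0.31 ± 0.03 (edgeR adjusted p = 0.000112) and kept its call without any 1 batch. Meis2, a homeobox cofactor gene (-0.14), and Rarres1, named for its response to retinoids (-0.72 ± 0.22), also fell. Ret, a receptor tyrosine kinase gene, rose by 0.87 ± 0.21 from 0.544 ± 0.287 to 0.981 ± 0.437 CPM (SD, n = 4). Rarres1 was lost whichever batch was left out, Ret without batch 4 or 6 and Meis2 without batch 1, 3 or 4. DESeq2 did not call Rarres1 (adjusted p = 0.121) or Ret (adjusted p = 0.0506). Of the 40 listed genes, 26 were in the count table and 20 of them were tested. The other 14, many of them Hox genes, were not analysed here.

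**Figure D4:**
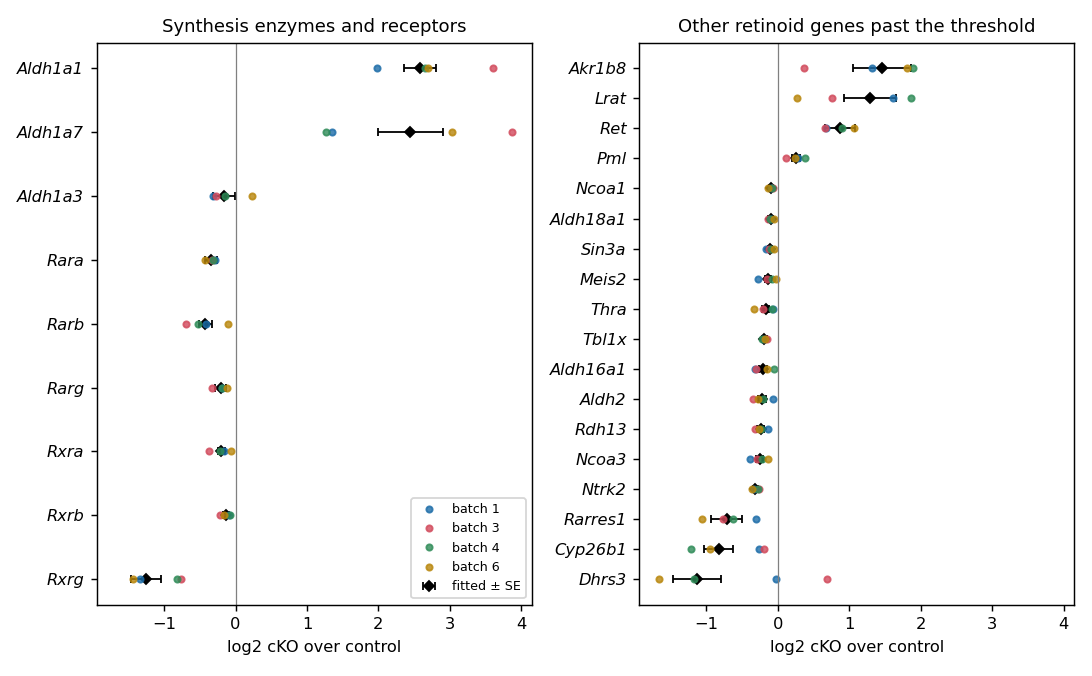
Log2 difference of cKO from control within each batch (coloured points) and fitted log2 fold change with its SE (black) for the 9 members tested (left) and 18 other retinoid genes past the threshold (right). Receptor genes cluster just below 0 apart from Rxrg, and for Dhrs3 batch 3, at 0 and 1 counts, lies opposite to batches 4 and 6.

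Cofactors and partners of the receptors moved by little. Of 18 coregulator genes, 1 rose, 4 fell and 13 did neither. Ncoa3, a coactivator gene, was at 46.1 to 49.1 CPM in control and 37.3 to 42.5 CPM in cKO cultures, with no overlap of the groups (-0.26 ± 0.05, edgeR adjusted p = 0.00361). Tbl1x, a component of the NCoR corepressor complex, fell by a like amount (-0.19 ± 0.03), while the corepressor gene Ncor1 (-0.09) did not pass. Sin3a (-0.11) and Ncoa1 (-0.10) fell, and Pml, whose fusion with RARA drives promyelocytic leukaemia in people, rose (0.25 ± 0.06). Ncoa1 lost its call whichever batch was left out, Sin3a without batch 1, 3 or 4 and Pml without batch 1. Of 10 receptors that pair with RXR, Thra, a thyroid hormone receptor gene at 258 CPM in control, fell (-0.17 ± 0.04, lost without batch 3). The other 9 did not pass, among them the liver X receptor gene Nr1h2 (-0.13 ± 0.05) and the second thyroid hormone receptor gene, Thrb (0.32 ± 0.14). Of 14 other aldehyde dehydrogenases, 3 fell by small amounts and 11 did neither. The 3 were Aldh2, the mitochondrial acetaldehyde enzyme (-0.23), Aldh16a1 (-0.21) and Aldh18a1, of proline synthesis (-0.10). Aldh2 lost its call without batch 3 or 4, Aldh16a1 without batch 1 or 3 and Aldh18a1 without batch 1, 3 or 4. DESeq2 called neither Aldh16a1 nor Aldh18a1, nor Sin3a or Ncoa1 (adjusted p from 0.0532 to 0.0757). Thra, Ncoa3 and Aldh16a1 overlap protein-coding genes on the opposite strand (Nr1d1, Sulf2 and Pih1d1).

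The surroundings of Aldh1a1 and Aldh1a7 were nearly silent in control progenitors. The table holds 5 other genes within 500 kb, each averaging at most 0.120 CPM in control. The 1 tested was the noncoding RNA gene 1500015L24Rik, which ends 47832 bases before the Aldh1a1 start (chr19:20324856-20444883, plus strand). It rose from 7, 1, 5 and 13 counts in control to 17, 18, 49 and 39 counts in cKO libraries of batches 1, 3, 4 and 6. Its log2 fold change was 2.27 ± 0.48 (edgeR adjusted p = 0.00921), higher in 4 of 4 batches and lost without batch 4. Anxa1, which encodes the phospholipid-binding protein annexin A1 and overlaps that noncoding gene on the opposite strand, had 6, 3, 0 and 0 counts in control and 59, 4, 9 and 10 counts in cKO libraries. It was filtered out before testing, as were C730002L08Rik, AC106834.1 and Tmc1. Tmc1, beyond Aldh1a7, had 0 to 11 counts in control and 1 to 8 counts in cKO libraries, with 2 batches in each direction. Around all 10 members, 24 of 118 tested neighbours passed, 5 upward and 19 downward. That is 20.3%, against 20.5% of all genes.

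Other neighbours past the threshold were spread over several of the remaining members. Within 500 kb of Rara, 5 of 21 tested genes fell: Erbb2, a receptor tyrosine kinase gene (-0.72 ± 0.10, edgeR adjusted p = 0.00187), Thra, Psmd3, Ormdl3 and Med24, the last 4 by at most 0.17. Near Rarg, 2 of 24 rose, the keratin gene Krt1 (0.82 ± 0.15) and Pfdn5 (0.15 ± 0.04), and 4 fell, Eif4b, Pcbp2, Tns2 and Zfp740. Near Rxra, 2 of 8 rose: Sardh, a mitochondrial sarcosine dehydrogenase gene (0.64 ± 0.04, edgeR adjusted p = 1.2e-05), and Olfm1 (0.27 ± 0.06), while Rxra itself was lower. Near Rxrb, 7 of 40 fell: B3galt4 (-0.74 ± 0.17), Gm19412 (-0.49 ± 0.09), Tapbp, Ring1, Rgl2, Wdr46 and Zbtb22. Single genes fell near Aldh1a2 (Cgnl1, -0.37 ± 0.09) and Aldh1a3 (Chsy1, -0.25 ± 0.03), and 0 of 4 passed near Rarb. Leaving out batch 1, 3, 4 or 6 gave 19, 12, 12 and 24 neighbours past the threshold around all members.

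**Figure D5:**
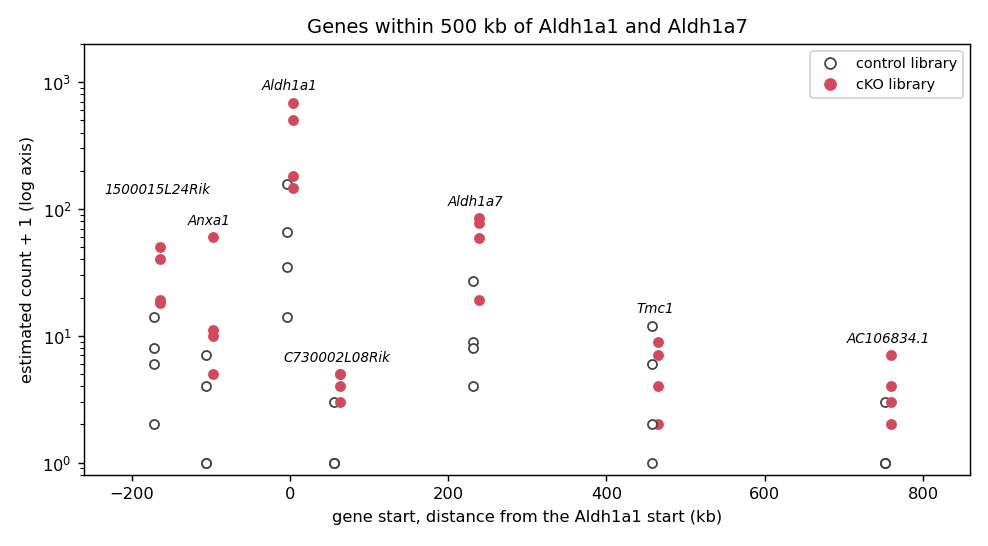
Estimated count plus 1 (log axis) in each control (open) and cKO (filled) library for Aldh1a1, Aldh1a7 and the 5 other genes of the table within 500 kb, placed by the distance of their start from the Aldh1a1 start in kb. In these counts, which are not scaled for depth, 1500015L24Rik separates the groups, Aldh1a1, Aldh1a7 and Anxa1 nearly do, and Tmc1 does not. Aldh1a1 is at 155 counts in the control library of batch 1 and 146 in the cKO library of batch 3.

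Other cell types that the cultures could hold were looked for with marker lists. Several defining markers (Cx3cr1, Aif1, Tmem119, C1qa, Cldn5, Cdh5, Kcnj8, Dcn and Th) are not in the table used here. For fibroblasts and meninges, 1 of 5 tested markers rose (Col1a2, at 3 to 12 counts in control libraries). Col1a1 (-0.69, lower in all 4 batches), Foxc1 (-0.76), Ogn (-0.315) and Islr (0.11) did not pass. The summed level was 0.814 to 16.4 CPM in control and 0.826 to 19.7 CPM in cKO cultures. For dopamine neurons, Ddc rose from 0.334 to 2.04 CPM while Slc6a3 (-0.40) and Slc18a2 (-0.04) did not pass, with sums of 2.42 to 3.38 CPM in control and 3.68 to 5.32 CPM in cKO cultures. Endothelial markers summed to 2.97 to 10.9 CPM in control and 3.55 to 8.56 CPM in cKO cultures, and 0 of 3 tested passed. Pericyte markers summed to 0.253 to 1.20 and 0.380 to 1.39 CPM. Of these Rgs5 rose, and Pdgfrb, the other tested, did not pass (-0.31). Microglial markers summed to 0.317 to 0.902 and 0.630 to 1.44 CPM, and P2ry12, the 1 tested, rose. Of 7 astrocyte markers 2 rose, 2 fell and 3 did neither, at sums of 885 to 2600 CPM in control and 879 to 2440 CPM in cKO cultures. Of 6 neuron markers 3 rose, at sums of 766 to 1320 and 796 to 1320 CPM that were mostly Map2. Those that rose were synaptic genes and a growth-cone gene: Snap25 (7.01 to 19.9 CPM, 287% of control in the fit), Syt1 (6.93 to 13.1 CPM, 179%) and Stmn2 (0.146 to 0.991 CPM, 650%), each higher in all 4 batches. The other neuron markers did not pass. Rbfox3 was lower in all 4 batches (-0.405, 75.5% of control in the fit), and Tubb3 (-0.003) and Map2 (-0.005) were near 0. The part of these cell types in the Aldh1a1 and Aldh1a7 differences was not tested.

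The genes whose pattern was most like that of Aldh1a1 were sought among 14322 tested genes averaging at least 1 CPM, after subtracting each batch mean. Over the 8 libraries, which then hold 4 independent differences, Pearson's r was 0.9995 for Capza2, 0.9993 for Dner, Cox16 and Gtf2h5, and 0.999 for Tceal5. The points share their batches and libraries, and these values are a description. Tceal5 had the largest difference of the 5, at 0.794 ± 0.250 CPM in control and 2.73 ± 0.532 CPM in cKO cultures (SD, n = 4), and the other 4 had log2 fold changes from 0.18 to 0.21.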

How the data were processed

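Polyadenylated RNA of 8 cultures was measured. The submitters' processing notes name STAR, cutadapt, DESeq2, Partek and the mm10 build. Gene annotation, strandedness and versions were not given in the sources read. The authors deposited estimated counts per gene, not normalized, of which 51.6% of values are not whole, as arises where reads are divided among features. No value column was left out (0). The table's end coordinate is 1 base past the last base, and ends are given here as the last base. Exon lengths came from GENCODE M21 (GRCm38), matched by name and position.

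Counts were rounded. edgeR 4.0.16 (R 4.3.3) kept 18102 genes by filterByExpr on group (minimum count 10), with TMM scaling, batch as a block, robust glmQLFit and glmQLFTest (2-sided) and Benjamini-Hochberg adjustment at 0.05. The block was used because batch names pair 1 control with 1 cKO library. Deviations from group means correlated at 0.75 to 0.79 within batches and at most 0.39 across them. The procedure was tested on simulated data. SEs come from the fold change and its F statistic, and a prior count of 2 was added for log2 CPM. Totals of 43542742 to 65374488 counts make counting error small except for genes under about 1 CPM.

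Members and lists were chosen with earlier results of these data known. Named were all members, every other retinoid gene past the threshold, up to 4 per list with the smallest p, genes within 500 kb of Aldh1a1 or Aldh1a7, neighbours of other members past the threshold, and the 5 genes most correlated with Aldh1a1. Other list members are examples chosen after their values were seen. Alternatives were RLE and upper-quartile factors, other filters, DESeq2 1.42.0, limma-voom 3.58.1, no block, each batch left out and the paralogues summed. The fit without the ribosomal RNA gene CT010467.1 was added after seeing the data. A few listed or neighbouring genes enter the counts but are not reported here.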

Additional observations from a re-analysis of the deposited data

Results flagged for a closer look

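Each member's CPM in each group of 4 libraries was checked for a library far from the other 3 (gap over range above Dixon's 95% critical value), 20 groups in all, of which chance flags about 1 in 20. There were 2. Rxrg was at 5.36 CPM in the control library of batch 6, against 0.253 to 0.936 CPM in the other control libraries (ratio 0.866). Aldh1a7 was at 0.356 CPM in the cKO library of batch 4, against 1.30 to 1.36 CPM in the other cKO libraries (ratio 0.939).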

How the results depend on the processing

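The main limit is the batch block: without it edgeR passed 3 genes, 0 members, 0 pathway genes and 0 neighbours, against 3706, 7, 20 and 24 with the replicate block. Leaving out each batch in turn gave 2102 to 3432 genes, 3 to 4 members, 9 to 20 pathway genes and 12 to 24 neighbours. The filter of 1 CPM in 4 libraries gave 4 members, since Aldh1a7 and Rxrg were no longer tested and Rxrb no longer passed, and DESeq2 gave 13 pathway genes. Other scalings, filters and tests with the block kept each count within 1.5 times. All 9 tested members kept their direction in every setting run: Aldh1a1 ranged from 2.41 to 2.95, Aldh1a7 from 2.01 to 3.10 and Rxrg from -1.39 to -1.06 on the log2 scale. Aldh1a1 and Aldh1a7 were past the threshold in every setting with the block in which they were tested, whereas Rxrb passed in 2 of 13 alternatives. Control levels moved by less than their SD under RLE and upper-quartile factors. The median of all genes stayed within 0.01 of 0. Depth limits Aldh1a2, Aldh1a7, Dhrs3 and the genes near Aldh1a1, at a few counts per library. The causes of these changes were not tested.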
